A study of Mus musculus with 15 samples.

Results

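The 8 genes described here are Zfp503, Gm42047, 1700030C10Rik (ENSMUSG00000099759), Fam111a, Tnnt1, Wfdc2, Efemp1 and Smpdl3a, out of 78298 genes listed in each count file. They were chosen by their counts, which differed strongly between 2 stable organoid lines, one carrying SOX9 tagged with Halo and the other SOX9 tagged with mEGFP. The difference between the lines is thus what selected them, and it is given as a description without a test. All 8 were among the 17560 genes that passed the filter on low counts, a filter that a gene can pass through the condition in which it is high.

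The material was mouse small intestinal organoids, three-dimensional epithelial cultures grown from crypts of female mice aged 8 to 16 weeks. The paper used wild-type C57BL/6J mice and LGR5::DTR-EGFP mice bred with them. It names a wild-type background for the SOX9-Halo organoids that became spheroids. The same background is named for the stable SOX9-Halo and SOX9-mEGFP organoids that were transduced again. The background of every sequenced line, Halo-NLS included, is not stated there. Poly-A RNA was sequenced in 15 libraries, 3 replicates for each of 5 conditions, from organoids of 6 pooled wells harvested 5 days after seeding. The control, Halo-NLS, carried V5-Halo with a nuclear localization sequence. SOX9-Halo_budding and SOX9-mEGFP_budding carried Sox9-Halo-V5 or Sox9-mEGFP-V5 and kept the budding organoid shape. SOX9-Halo_spheroid and SOX9-mEGFP_spheroid were round cultures with the same Sox9 transgenes, kept for more passages. The paper also describes a second transduction of both SOX9 lines, with H2B-mEGFP and zeocin resistance or H2B-mScarletI and neomycin resistance. SOX9-Halo spheroids with H2B-mEGFP were imaged. The paper's sequencing methods do not say which libraries carried a second transgene. Every transgene, that of the control included, was delivered by lentivirus and driven by the weak ubiquitous L30 promoter, with puromycin resistance on the first one. The SOX9-Halo line imaged by the paper in budding cultures, on the LGR5::DTR-EGFP background, was described as polyclonal at first. Whether that holds for the sequenced lines is not given in the sources used here, nor whether a line later came to be 1 clone. Tag, transduction, any difference in donor genotype and any later history of a line cannot be told apart. Spheroid shape, passage and any difference in second transgene or donor genotype cannot be told apart either.

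SOX9 is a transcription factor with an HMG-box DNA-binding domain, expressed in the stem and Paneth cells of the intestinal crypt and needed for Paneth cells to form. Lentiviral transduction places a transgene at different sites in different cells, and organoid lines kept apart for many passages can drift in what they express. A gene that marks a line should be on or off in that line in both shapes, whereas a gene that marks shape should move in the same direction in both lines.

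Sox9 itself was higher in every SOX9 condition than in Halo-NLS, where it lay between 9.10 and 22.9 CPM (counts divided by library size, with TMM scaling). The counts do not separate transgene from endogenous Sox9. SOX9-Halo_budding replicate 1 stood apart with 39.8 CPM, against 314 and 204 CPM in the other replicates of its condition. Some counts of called genes that rest on this library are also given without it. So are the line differences in budding organoids of Zfp503, Gm42047, 1700030C10Rik and Fam111a. Sox9 did not pass the test between the lines in budding organoids (log2 fold change -0.63, SE 0.55, adjusted p = 1 in edgeR) or in spheroids (-0.30, SE 0.55, adjusted p = 0.75). Library totals ran from 28062722 to 40559766 counts, and 1 count in a library is therefore worth a few hundredths of a CPM. Marker genes of epithelium summed to between 5852 and 12420 CPM in all libraries, with Cldn3 alone listed at 0, while fibroblast, muscle, immune and endothelial markers summed to at most 9.40, 1.24, 8.15 and 3.63 CPM. Neural and glial markers summed to at most 38.0 CPM, most of it S100b. Xist, the RNA of the inactive X chromosome, had 1182 to 14811 counts per library in SOX9-Halo_budding and 1536 to 2107 in SOX9-Halo_spheroid, but 0 to 8 in the 9 libraries of the other conditions. Among Kdm5d, Uty, Ddx3y and Eif2s3y on the Y chromosome, 1 count of Kdm5d was found in the whole series. The line difference of the 8 genes thus comes with a line difference of Xist, whose part in it was not tested. In Halo-NLS, Xist had 1 to 4 counts per library, while Zfp503, Gm42047, 1700030C10Rik and Fam111a were far above that.

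Zfp503 encodes a zinc finger corepressor of the NET family, Fam111a a protease that works at replication forks together with the sliding clamp PCNA, and Gm42047 and 1700030C10Rik are annotated as long noncoding RNAs. These 4 genes stand on 4 chromosomes of GRCm39, Zfp503 at chr14:22033983-22039669 on the minus strand, Gm42047 at chr8:122559877-122567924 on the plus strand, 1700030C10Rik at chr12:20854368-20865839 on the minus strand and Fam111a at chr19:12523104-12567134 on the plus strand. Promoter windows from RefSeq (GRCm38.p6) were found for 6 of the 8 genes, and none for Gm42047 and Smpdl3a. Fam111a had another window, at chr19:12550639-12550888, which is not printed. The RefSeq start of the printed Fam111a window lies 27770 bases downstream of the annotated start of the gene. The 250 bases before the RefSeq start are printed for 1 window each of Zfp503, 1700030C10Rik and Fam111a, whose RNA was near 0 throughout the SOX9-mEGFP line. They are written 5′ to 3′ on the strand of the gene, with CpG dinucleotides in capitals, and each matched GRCm39 exactly once, Zfp503 at chr14:22039670-22039919, 1700030C10Rik at chr12:20865781-20866030 and Fam111a at chr19:12550624-12550873.
Zfp503: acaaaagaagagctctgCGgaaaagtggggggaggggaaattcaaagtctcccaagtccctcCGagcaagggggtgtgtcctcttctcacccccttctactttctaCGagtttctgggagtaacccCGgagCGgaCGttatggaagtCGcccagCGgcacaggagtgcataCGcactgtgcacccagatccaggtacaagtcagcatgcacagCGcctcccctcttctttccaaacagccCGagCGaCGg
1700030C10Rik: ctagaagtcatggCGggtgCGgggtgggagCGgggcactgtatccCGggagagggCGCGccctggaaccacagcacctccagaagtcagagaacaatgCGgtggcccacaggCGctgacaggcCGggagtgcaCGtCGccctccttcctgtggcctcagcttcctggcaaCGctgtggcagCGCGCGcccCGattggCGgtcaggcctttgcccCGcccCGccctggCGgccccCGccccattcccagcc
Fam111a: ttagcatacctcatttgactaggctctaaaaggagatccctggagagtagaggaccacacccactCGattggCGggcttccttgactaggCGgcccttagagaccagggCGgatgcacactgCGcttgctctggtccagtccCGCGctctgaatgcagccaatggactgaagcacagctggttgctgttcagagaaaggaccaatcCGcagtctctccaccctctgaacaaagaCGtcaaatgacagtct
The Zfp503, 1700030C10Rik and Fam111a windows held 13, 21 and 9 CpG dinucleotides, against a median of 6 over 32851 RefSeq windows of the same length. Fewer CpG dinucleotides than in each were found in 68.5%, 83.7% and 59.7% of all windows. A SOX core motif read on either strand was present in 2 of the 3, ACAAAG in Fam111a and ACAATG in 1700030C10Rik, where 16.5% and 10.7% of all windows held these letters. None of the 3 windows held TATAAA on either strand, a motif found in 12.4% of all windows. Of the other windows, Tnnt1 held TATAAA and 6 CpG dinucleotides, and Wfdc2 and Efemp1 held none of these 3 motifs and 14 and 10 CpG dinucleotides.

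In the SOX9-mEGFP line these 4 genes were at or near 0 in all 6 libraries, budding and spheroid alike. Zfp503 was at 47.4, 52.0 and 49.0 CPM in Halo-NLS, at 26.5, 37.6 and 40.4 CPM in SOX9-Halo_budding and at 80.9, 114 and 141 CPM in SOX9-Halo_spheroid. In SOX9-mEGFP_budding its libraries held 1, 2 and 4 counts, and in SOX9-mEGFP_spheroid 0, 1 and 0 counts. No library of the SOX9-mEGFP line came near the lowest library of the other 3 conditions. Gm42047 was at 127, 85.7 and 54.2 CPM in Halo-NLS, at 176, 135 and 263 CPM in SOX9-Halo_budding and at 264, 286 and 304 CPM in SOX9-Halo_spheroid. Its counts in the SOX9-mEGFP line were 5, 2 and 5 in budding organoids and 2, 6 and 4 in spheroids. The gene was thus silent or nearly so in that line while it was among the more abundant of the 8 in the others. 1700030C10Rik was at 6.15, 9.33 and 12.1 CPM in Halo-NLS, at 5.43, 4.41 and 7.53 CPM in SOX9-Halo_budding and at 7.27, 8.96 and 8.93 CPM in SOX9-Halo_spheroid. Not 1 count of it was found in the 6 SOX9-mEGFP libraries, which over 3 libraries allows a level of up to 0.0291 CPM in budding organoids and 0.0282 CPM in spheroids. Fam111a was at 14.4, 4.24 and 6.33 CPM in Halo-NLS, at 14.6, 4.32 and 27.1 CPM in SOX9-Halo_budding and at 45.3, 55.0 and 75.3 CPM in SOX9-Halo_spheroid. Its counts were 1, 0 and 6 in SOX9-mEGFP_budding and 0 in every SOX9-mEGFP_spheroid library. Floors and intervals on these counts cover counting error only.

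**Figure D1:**
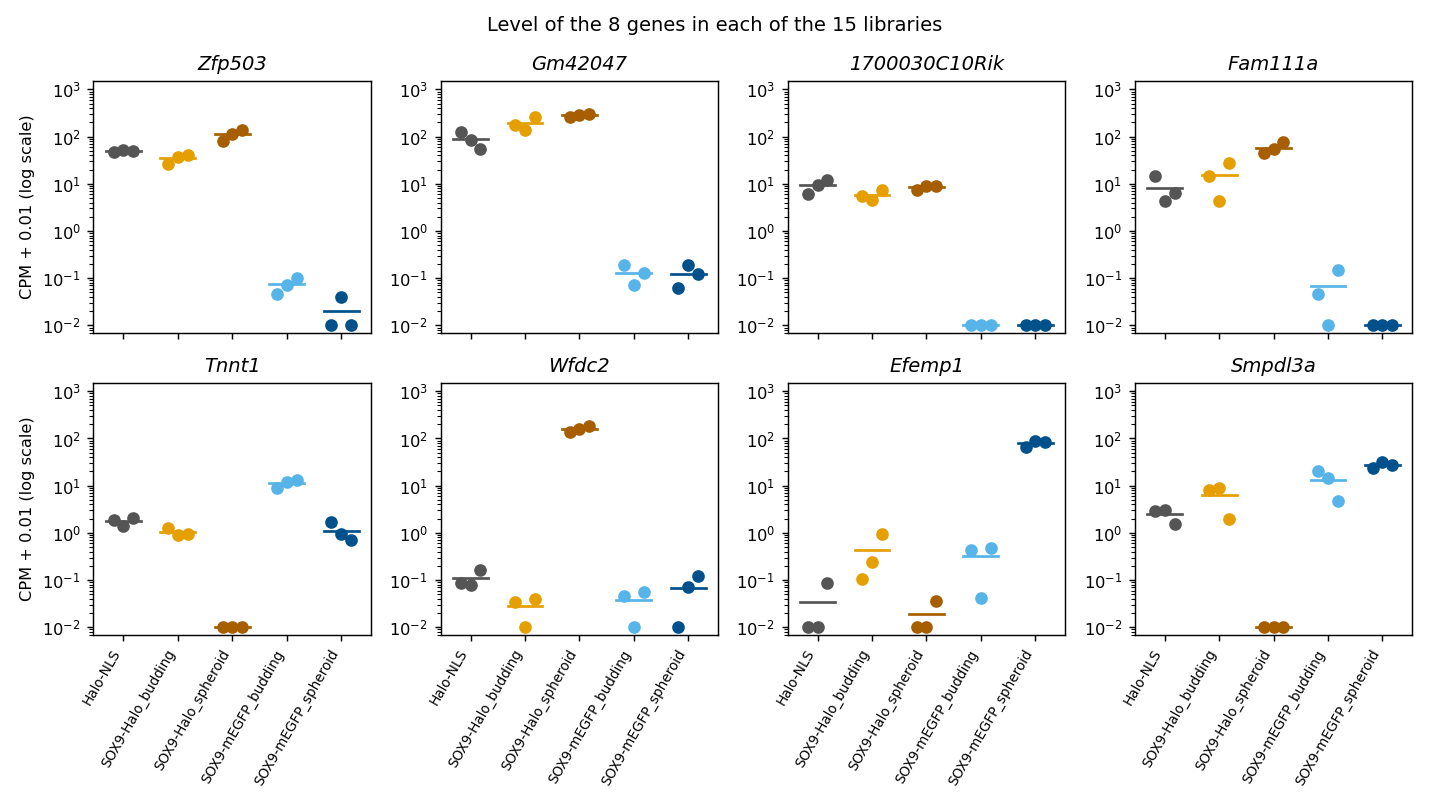
Level of each of the 8 genes in each of the 15 libraries, as CPM + 0.01 on a log scale. Points are libraries and short lines are condition means (n = 3). The upper row shows 4 genes near the bottom of the axis in all 6 SOX9-mEGFP libraries, while each gene of the lower row is high or low in a different set of conditions.

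Between the lines, pooled counts of Zfp503 were 504-fold higher in SOX9-Halo_budding than in SOX9-mEGFP_budding (95% counting interval 245 to 1255). Those of Gm42047 were 1634-fold higher (935 to 3162), those of Fam111a 225-fold higher (109 to 560), and those of 1700030C10Rik at least 198-fold higher against a floor of 3 counts over the 3 libraries. In spheroids, Gm42047 was 2544-fold higher in the SOX9-Halo line (1456 to 4923), 1700030C10Rik at least 301-fold and Fam111a at least 2124-fold. Zfp503 was 12207-fold higher there on 1 count in the SOX9-mEGFP line, with an interval of 2190 to 482178. These folds describe the choice of the genes. Of the 7 counts of Fam111a in SOX9-mEGFP_budding 6 were in replicate 3, and without that library its fitted log2 difference was 9.49 in place of 7.78. The fitted difference of Zfp503 in spheroids was 14.85 without SOX9-mEGFP_spheroid replicate 2, which held its only count, in place of 13.06. Without SOX9-Halo_budding replicate 1, the fitted differences in budding organoids were 9.10 for Zfp503, 10.69 for Gm42047, 10.62 for 1700030C10Rik and 7.81 for Fam111a, against 8.94, 10.63, 10.60 and 7.78 with it. The libraries of the lines did not overlap for 5 of the 8 genes in budding organoids and for 8 of 8 in spheroids, where 12.0% and 48.6% of all tested genes did not overlap. Across all tested genes 0.456% were called between the lines in budding organoids and 13.1% in spheroids, where a call in edgeR asked for a Benjamini-Hochberg adjusted p no higher than 0.01, a change of 2-fold or more and 10 or more normalized counts on average.

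**Figure D2:**
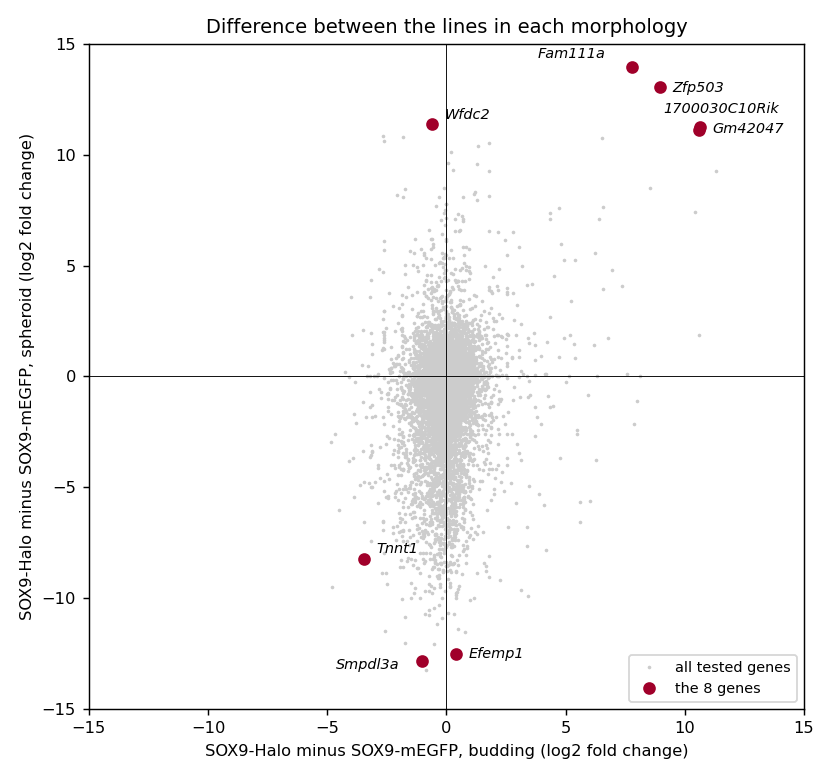
Fitted log2 fold change of SOX9-Halo over SOX9-mEGFP in budding organoids (horizontal) and in spheroids (vertical) for the 17560 tested genes (grey) and the 8 genes (red). Zfp503, Gm42047, 1700030C10Rik and Fam111a lie at the upper right and Tnnt1 at the lower left, while Wfdc2, Efemp1 and Smpdl3a lie close to 0 on the horizontal axis.

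For the other 4 genes the data go against the name of line markers that are independent of shape. Tnnt1, the troponin T of slow skeletal muscle, was higher in the SOX9-mEGFP line in both shapes and lower in spheroids than in budding organoids in both lines. It was at 1.91, 1.37 and 2.02 CPM in Halo-NLS, 1.26, 0.899 and 0.930 CPM in SOX9-Halo_budding and 8.90, 12.0 and 13.2 CPM in SOX9-mEGFP_budding. In spheroids it was at 1.69, 0.925 and 0.710 CPM in the SOX9-mEGFP line and had 0 counts in each SOX9-Halo library. Its fitted log2 difference, SOX9-Halo minus SOX9-mEGFP, was -3.46 in budding organoids, and its pooled level in spheroids was at least 37.9-fold higher in the SOX9-mEGFP line. Tnnt1 lies at chr7:4507567-4519381 on the minus strand. Wfdc2, at chr2:164403475-164411377 on the plus strand, encodes a secreted protein with WAP domains made by many epithelia. It was at 134, 156 and 188 CPM in SOX9-Halo_spheroid, and between 0 and 4 counts per library in the 12 libraries of the other 4 conditions. Wfdc2 marked 1 line in 1 shape, since the lines overlapped in budding organoids with 1, 0 and 1 counts in SOX9-Halo and 1, 0 and 2 in SOX9-mEGFP. Pooled over spheroids it was 2877-fold higher in the SOX9-Halo line (counting interval 1321 to 7841). Its fitted log2 difference of 11.37 was 12.28 without SOX9-mEGFP_spheroid replicate 3 and 10.76 without replicate 1.

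Efemp1, at chr11:28803150-28876825 on the plus strand, encodes fibulin-3, a glycoprotein of the extracellular matrix. It was at 66.3, 90.6 and 84.7 CPM in SOX9-mEGFP_spheroid and below 1 CPM in every other library. Its counts were 4, 8 and 33 in SOX9-Halo_budding, 12, 1 and 20 in SOX9-mEGFP_budding, 0, 0 and 1 in SOX9-Halo_spheroid and 0, 0 and 2 in Halo-NLS. The lines again overlapped in budding organoids, where the pooled ratio of SOX9-Halo to SOX9-mEGFP was 1.27 (counting interval 0.790 to 2.05), while in spheroids Efemp1 was 8090-fold higher in SOX9-mEGFP on 8528 against 1 count (1452 to 319555). Without SOX9-Halo_spheroid replicate 3, which held that count, the fitted log2 difference was -14.37 in place of -12.53. Smpdl3a, at chr10:57670431-57688374 on the plus strand, encodes a phosphodiesterase related to acid sphingomyelinase, and its regulation by the liver X receptors (LXR) was not tested. It was at 2.84, 3.04 and 1.5 CPM in Halo-NLS, 8.23, 9.10 and 2.01 CPM in SOX9-Halo_budding and 19.98, 14.2 and 4.83 CPM in SOX9-mEGFP_budding. It was at 23.7, 32.1 and 27.4 CPM in SOX9-mEGFP_spheroid and had 0 counts in all 3 SOX9-Halo_spheroid libraries, at least 929-fold lower. Smpdl3a thus set the lines apart by its loss in SOX9-Halo spheroids, with overlapping lines before.

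The same division was seen in how the sum of squares of log2(CPM + 0.1) over the 12 SOX9 libraries split into line, shape, their interaction and replicates. Line took 97.7% for Zfp503, 99.4% for Gm42047, 99.3% for 1700030C10Rik and 93.4% for Fam111a. For Tnnt1 line took 49.7% and shape 48.8%, with 0.0326% for the interaction. That small interaction depends on the 0.1 added to each CPM, since Tnnt1 had 0 counts in SOX9-Halo_spheroid. Its fitted log2 change from budding organoids to spheroids was -8.12 in SOX9-Halo and -3.35 in SOX9-mEGFP. The SOX9-mEGFP libraries held at most 0.181 CPM of Zfp503, Gm42047, 1700030C10Rik or Fam111a. The added 0.1 therefore also damps any change of these genes between shapes in that line. Wfdc2 divided into 31.2% for line, 35.9% for shape and 32.5% for the interaction, Efemp1 into 38.1%, 15.7% and 42.5%, and Smpdl3a into 52.2%, 12.4% and 31.1%. Over all 17560 tested genes the median share of line was 7.57% and that of shape 29.4%, and 18 genes, or 0.103%, had over 90% in line. These shares use the contrast that chose the genes and serve as a description.

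**Figure D3:**
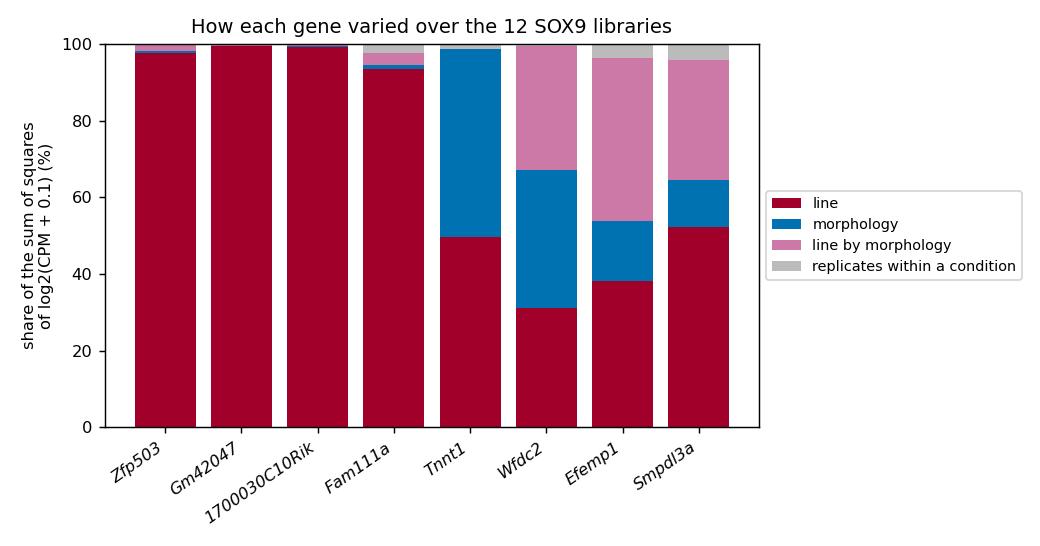
Share of the sum of squares of log2(CPM + 0.1) over the 12 SOX9 libraries that lies between lines, between shapes, in the line by shape interaction and among replicates within a condition, in percent. Line fills over 93% of the bars of the first 4 genes and 31.2% to 52.2% of the other 4.

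Genes with an on and off pattern were then counted among all 78298 listed genes, with off set below 0.25 CPM and on at 2 CPM or more in every library, thresholds chosen after the values were seen. Off in SOX9-mEGFP and on in Halo-NLS and SOX9-Halo was found for 5 genes, Zfp503, Gm42047, 1700030C10Rik, Fam111a and the long noncoding RNA Ppp1r36dn at chr12:76490941-76573553. On in SOX9-Halo and off elsewhere was found for 1 gene, Xist. No gene was on in SOX9-mEGFP alone in both shapes, and none was off in both shapes of SOX9-Halo alone. By contrast 94 genes were off in SOX9-Halo_spheroid alone, 13 were on in SOX9-Halo_spheroid alone, Wfdc2 among them, and 17 were on in SOX9-mEGFP_spheroid alone. Efemp1 misses the last set because some budding libraries exceeded 0.25 CPM, and Smpdl3a and Tnnt1 miss the first because some libraries of other conditions were under 2 CPM.

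Against Halo-NLS, the question was on which side of the control each line lay. These tests share SOX9 libraries with the contrast that chose the genes, and they share the control libraries with each other. Calls in conditions whose values chose a gene are no separate support. Such values are those of Zfp503, Gm42047, 1700030C10Rik and Fam111a in the SOX9-mEGFP line. So are the spheroid values of Wfdc2, Efemp1 and Smpdl3a and the values of Tnnt1 in both shapes. In SOX9-Halo_budding none of the 8 genes was called, where 3.75% of all tested genes were. That share rests on 659 genes, which became 201 without Halo-NLS replicate 2 and 2370 without Halo-NLS replicate 1. The number was 290 without SOX9-Halo_budding replicate 1 and 5 with only the libraries compared. An unadjusted p under 0.05 was found for 5 of the 8 genes, and DESeq2 called 0 of the 8. The nearest to a call were Gm42047 with a log2 fold change of 1.10 (SE 0.31, adjusted p = 0.028) and Efemp1 with 3.90 on 45 against 2 counts (SE 1.21, adjusted p = 0.038). Without Halo-NLS replicate 1, Gm42047 was called at 1.45 (adjusted p = 0.0042), and without SOX9-Halo_budding replicate 1 none was called. The median log2 fold change over the 8 genes was 0.19, against 0.01 over all tested genes.

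In SOX9-mEGFP_budding 5 of the 8 were called against Halo-NLS, 1 higher and 4 lower, where 2.76% of all tested genes were, 1.99% higher and 0.763% lower. The 484 genes behind that share became 216 without Halo-NLS replicate 2, 2183 without Halo-NLS replicate 1 and 103 with only the libraries compared. Zfp503 was 730-fold lower (counting interval 354 to 1816, adjusted p = 1.5e-08 in edgeR), Gm42047 760-fold lower (435 to 1472, adjusted p = 7e-08) and Fam111a 119-fold lower (57.6 to 298, adjusted p = 0.00066). 1700030C10Rik was at least 318-fold lower (adjusted p = 6.3e-06). Tnnt1 rose, with a log2 fold change of 2.68 (SE 0.34, adjusted p = 0.00055). The libraries of both conditions did not overlap for 7 of the 8 genes, these 5 included, where 32.5% of all tested genes did not overlap. Smpdl3a was 2.40 higher on the log2 scale without passing the threshold (SE 0.58, adjusted p = 0.021), and DESeq2 called it at 2.39 (adjusted p = 0.00081). The median over the 8 genes was -4.27, against 0.03 over all tested genes.

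In SOX9-Halo_spheroid 6 of the 8 were called against Halo-NLS, 4 higher and 2 lower, where 28.8% of all tested genes were called, 13.6% higher and 15.2% lower. Wfdc2 rose 1653-fold on pooled counts (counting interval 839 to 3829, adjusted p = 2.3e-09). Fam111a rose by 2.82 on the log2 scale (SE 0.64, adjusted p = 0.0027), Gm42047 by 1.68 (SE 0.32, adjusted p = 0.00052) and Zfp503 by 1.18 (SE 0.26, adjusted p = 0.0017). Of the 4 genes that were off in the SOX9-mEGFP line, 3 were thus above the control in SOX9-Halo spheroids, while 1700030C10Rik was at -0.13 (SE 0.31, adjusted p = 0.75). The call of Fam111a was lost without Halo-NLS replicate 2 (adjusted p = 0.012) or replicate 3 (0.015) or without SOX9-Halo_spheroid replicate 3 (0.011). The call of Zfp503 was lost without SOX9-Halo_spheroid replicate 3, at 0.96 and an adjusted p of 0.016. Tnnt1 was at least 59.0-fold lower (adjusted p = 5.6e-07) and Smpdl3a at least 83.4-fold lower (adjusted p = 4.3e-05).

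In SOX9-mEGFP_spheroid 6 of the 8 were called against Halo-NLS, 2 higher and 4 lower, where 27.4% of all tested genes were called, 15.3% higher and 12.1% lower. Efemp1 rose 3266-fold on 8528 against 2 pooled counts (counting interval 904 to 26972, adjusted p = 7.1e-07). Smpdl3a rose by 3.49 on the log2 scale (SE 0.60, adjusted p = 0.00044). The 4 lower genes were those that were also lower in the budding organoids of that line. Gm42047 was 786-fold lower (450 to 1522, adjusted p = 7.6e-09), 1700030C10Rik at least 329-fold (adjusted p = 3.5e-07) and Fam111a at least 288-fold (adjusted p = 2.3e-05). Zfp503 was 5283-fold lower on 1 count (948 to 208701, adjusted p = 1.7e-09). Tnnt1, at -0.66 (SE 0.34, adjusted p = 0.12), was not called, although it was called higher in the budding organoids of the line. The median over the 8 genes was -5.17, or -4.46 with the genes at 0 put at their bounds, against 0.03 over all tested genes.

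**Figure D4:**
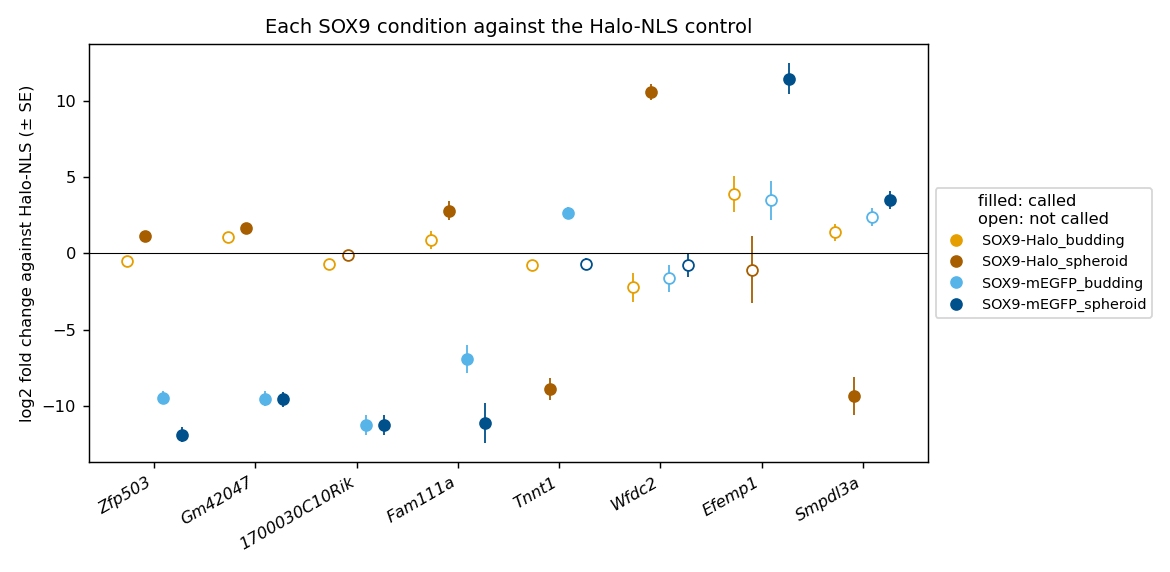
Fitted log2 fold change of each gene in each SOX9 condition against Halo-NLS, with SE bars. Filled points passed the 3 limits of a call, and open points did not. No point of SOX9-Halo_budding is filled, and Zfp503, Gm42047, 1700030C10Rik and Fam111a lie below -6 in both SOX9-mEGFP conditions.

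The change from budding organoids to spheroids was compared within each line. These tests share SOX9 libraries with the contrast that chose the genes. Wfdc2, Efemp1 and Smpdl3a overlapped between the lines in budding organoids, so their spheroid values chose them. Their calls here use those same spheroid libraries and are no separate support. For SOX9-Halo, 5 of the 8 were called, 2 higher and 3 lower, against 25.2% of all tested genes, 10.5% higher and 14.7% lower. Wfdc2 rose 8996-fold on 16374 against 2 pooled counts (counting interval 2490 to 74286, adjusted p = 1.4e-09), and Zfp503 rose by 1.68 on the log2 scale (SE 0.26, adjusted p = 0.0001). Tnnt1 was at least 35.2-fold lower (adjusted p = 2e-06) and Smpdl3a at least 221-fold lower (adjusted p = 8.6e-06). Efemp1 was 41.0-fold lower on 1 against 45 counts (6.99 to 1653, adjusted p = 0.0066). That last call was lost without SOX9-Halo_budding replicate 3 (adjusted p = 0.044) and without SOX9-Halo_spheroid replicate 1 (0.025), 2 (0.029) or 3 (0.019). Fam111a was at 1.93 (SE 0.61, adjusted p = 0.022). Replicate numbers were taken to pair the libraries in this comparison. With the number as a block Fam111a was called at 2.26 (adjusted p = 0.0039), which made 6 of 8. That block was fitted over all conditions with a shared replicate effect, although numbers were taken to pair in this comparison only. It is thus not a paired test of these libraries alone. Fam111a was also called without SOX9-Halo_budding replicate 3, at 2.65 (adjusted p = 0.0091), and by DESeq2 at 1.95 (adjusted p = 0.0052). Without SOX9-Halo_budding replicate 1, the library with low Sox9, 5 genes were called. The median over the 8 genes was 0.55, against -0.08 over all tested genes.

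In the SOX9-mEGFP line 2 of the 8 genes were called from budding organoids to spheroids, 1 higher and 1 lower, where 16.4% of all tested genes were, 8.53% higher and 7.86% lower. Efemp1 rose 250-fold on pooled counts (counting interval 178 to 363, adjusted p = 3.1e-06). That call rests on the SOX9-mEGFP_spheroid libraries whose values chose the gene. Tnnt1 fell by 3.35 on the log2 scale (SE 0.35, adjusted p = 1.4e-05). Smpdl3a was 1.10 higher (SE 0.54, adjusted p = 0.17) with libraries that did not overlap. The 4 genes off in this line had too few counts to tell a change, with 12 against 12 pooled counts of Gm42047, 7 against 1 of Zfp503, 7 against 0 of Fam111a and none of 1700030C10Rik. Over the 7 genes with counts the median was -0.05, against -0.04 over all tested genes.

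Averaged over both lines, 3 of the 8 genes were called for spheroid against budding, 1 higher and 2 lower, where 23.7% of all tested genes were, 10.3% higher and 13.4% lower. Tnnt1 fell by 5.73 on the log2 scale (SE 0.41, adjusted p = 9.2e-08) and Smpdl3a by 4.83 (SE 0.72, adjusted p = 9.5e-05), both from fits with a condition at 0. Wfdc2 was at 6.86 (SE 0.71, adjusted p = 1.2e-06). The averages of Wfdc2 and Smpdl3a rest on the SOX9-Halo_spheroid libraries whose values chose these genes, and they join unlike changes, 12.85 and 0.88 for Wfdc2. Of the 8 genes, Tnnt1 alone fell beyond the threshold in each line. Zfp503 (-0.38, adjusted p = 0.55), Gm42047 (0.26, adjusted p = 0.61), Fam111a (-1.15, adjusted p = 0.43) and 1700030C10Rik (adjusted p = 1) were not called.

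On the scale of CPM per kilobase of exon, Gm42047 was the highest of the 8 genes in Halo-NLS at 14.8 ± 6.10 (SD, n = 3), with Zfp503 next at 11.2 ± 0.528. 1700030C10Rik and Fam111a were close to each other, at 1.98 ± 0.643 and 1.89 ± 1.21. Smpdl3a and Tnnt1 followed at 0.850 ± 0.290 and 0.741 ± 0.147, and Wfdc2 and Efemp1 were near 0. In SOX9-Halo_spheroid Wfdc2 was highest at 58.2 ± 9.86, ahead of Gm42047 at 47.3 ± 3.32, Zfp503 at 25.4 ± 6.78 and Fam111a at 13.3 ± 3.47. In SOX9-mEGFP_spheroid Efemp1 led at 17.8 ± 2.80, with Smpdl3a at 9.58 ± 1.45 and Tnnt1 at 0.465 ± 0.217. Within the order of conditions, libraries of neighbours overlapped between both SOX9-mEGFP conditions for Gm42047, 1700030C10Rik and Fam111a, and between Halo-NLS and SOX9-Halo_budding for Fam111a and Smpdl3a. They also overlapped among the 3 other conditions for 1700030C10Rik, from SOX9-Halo_budding through SOX9-mEGFP_spheroid to Halo-NLS for Tnnt1, between the budding conditions for Smpdl3a, and among the 4 low conditions for Wfdc2 and Efemp1. For Zfp503 no neighbours in the order overlapped. In these bulk libraries, fewer cells with a transcript and less of it per cell cannot be told apart.

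Whether the line difference reached the genes next to the 8 was asked with the 59 tested genes within 250 kb, a feature that the choice did not use. Of these, 2 were called between the lines in budding organoids, 1 higher and 1 lower in SOX9-Halo, where 0.29% of all tested genes were higher and 0.165% lower. In spheroids 9 of the 59 were called, 3 higher and 6 lower, where 3.59% of all tested genes were higher and 9.56% lower. The median line difference over the 59 was 0.06 in both shapes, with medians of 0.01 and -0.05 over all tested genes. No tested gene lay within 250 kb of Smpdl3a. Next to Zfp503, ENSMUSG00000122573 began 0.268 kb away on the far side of the start and was higher in SOX9-Halo spheroids by 5.83 on the log2 scale (adjusted p = 0.00029), from 0.00946 to 0.741 CPM. C130012C08Rik, 2.84 kb away, had 0 counts in the SOX9-mEGFP line and a mean of 0.510 CPM in SOX9-Halo_spheroid, and was too low to be called. On the other side, A430057M04Rik at 127 kb differed by 0.46 in budding organoids and 0.53 in spheroids (adjusted p = 1 and 0.41). The genes at a distance from Zfp503 thus did not pass the test between the lines, and those beside it had the direction of Zfp503 at a low level.

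Beside Gm42047, Klhdc4 at 3.43 kb was called higher in SOX9-Halo spheroids by 1.26 (adjusted p = 0.0022), and Gm26812 at 8.97 kb was at -1.15 in budding organoids and 0.75 in spheroids (adjusted p = 0.65 and 0.30). The nearest genes to 1700030C10Rik were Gm49700 at 134 kb, with 6.94 and 4.78 (adjusted p = 0.017 and 0.0043, not called at its low level), and 3110053B16Rik at 57.5 kb, with 0.14 and -0.41 (adjusted p = 1 and 0.32). Around Fam111a, Dtx4 at 43.6 kb differed by -0.30 and 0.89 (adjusted p = 0.95 and 0.0077, under the fold limit). On its other side 4122401K19Rik at 5.88 kb was called in spheroids in the opposite direction, at -1.88 (adjusted p = 0.0024). A330040F15Rik covers the whole of Fam111a on the opposite strand, was tested at 37 counts or fewer per library and differed by 0.58 and 0.15 (adjusted p = 1 and 0.93). Reads were counted without regard to strand and those shared by both genes were left out, so the level of Fam111a comes from the exons that it does not share.

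Ppp1r12c at 2.34 kb from Tnnt1 did not differ beyond the threshold (0.01 and 0.29, adjusted p = 1 and 0.29), and Dnaaf3 at 6.55 kb was at -1.84 and -4.23 (adjusted p = 0.27 and 0.00036, too low to be called). In spheroids 5 of the 15 neighbours of Tnnt1 were called, all lower in SOX9-Halo, which made up 5 of the 6 lower calls among the 59. They were Syt5, Ptprh (-4.19), Brsk1 (-5.56), Tmem150b (-5.94) and Cox6b2. Of these, Cox6b2 at 235 kb was called lower in SOX9-Halo in both shapes (-3.45 and -4.75, adjusted p = 0.0019 and 2.3e-05). Syt5 at 23.4 kb was called lower in SOX9-Halo spheroids (-10.09, against 0 counts, adjusted p = 9.1e-06) and was at 0.99 in budding organoids (adjusted p = 0.80). Gm14317 at 1.82 kb from Wfdc2 was at 4.74 in budding organoids (adjusted p = 0.011) and 0.89 in spheroids (adjusted p = 0.18). Gm57459 at 37.1 kb from Wfdc2 was called higher in SOX9-Halo in both shapes, at 6.58 and 3.93 (adjusted p = 0.00011 and 6.1e-05), although Wfdc2 itself overlapped between the lines in budding organoids. Wfdc3, the next relative of Wfdc2 on the other side at 162 kb, was at 0.27 and -0.59 (adjusted p = 1 and 0.34). Pnpt1, 204 kb from Efemp1, was at 0.07 and 0.28 (adjusted p = 1 and 0.71).

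**Figure D5:**
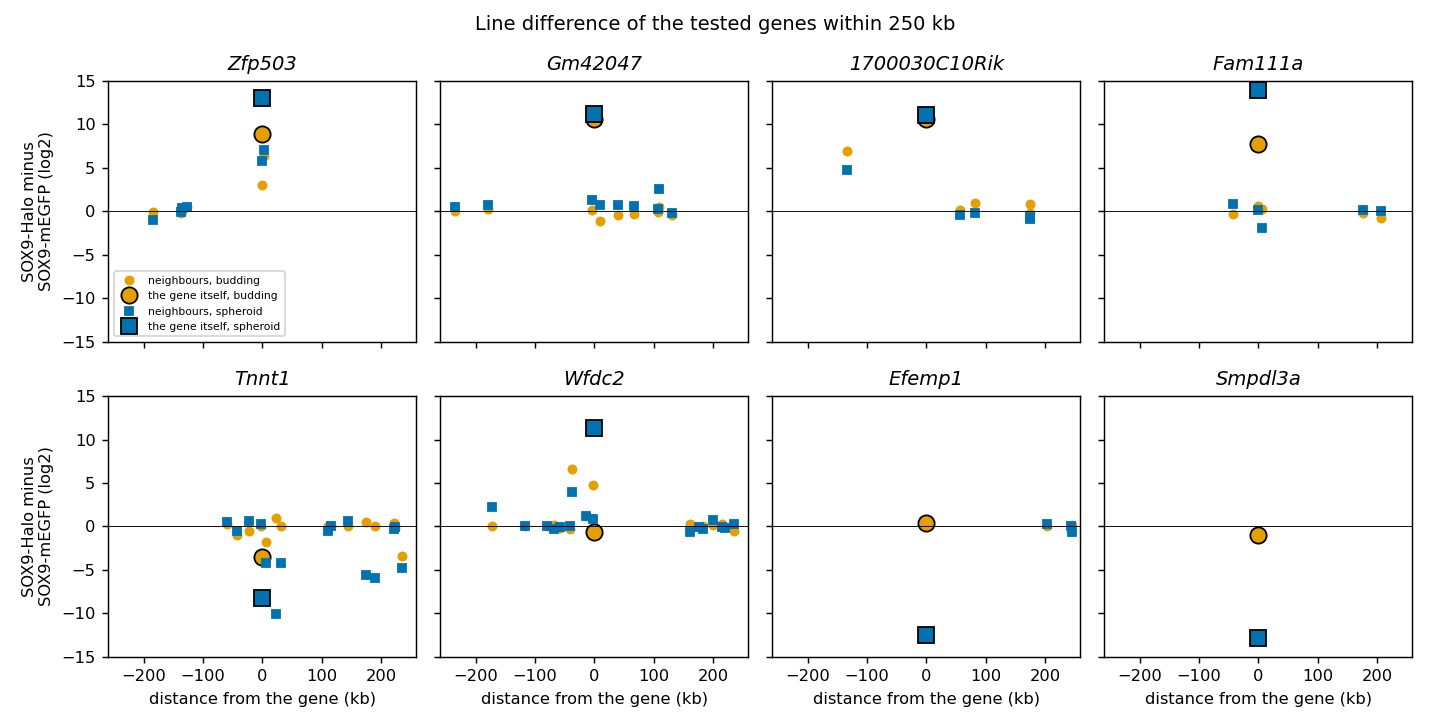
Fitted log2 fold change of SOX9-Halo over SOX9-mEGFP for the tested genes within 250 kb of each of the 8 genes, against distance in kilobases, in budding organoids (circles) and spheroids (squares). Large outlined symbols are the 8 genes. Most neighbours lie close to 0 in budding organoids, and Smpdl3a has no tested neighbour.

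The genes most like each of the 8 were sought among 11031 genes that averaged 100 or more normalized counts, by the root mean square (RMS) difference of log2 CPM over the 15 libraries after each gene's own mean was taken off. Zfp503 and Gm42047 were the closest pair among the 8, with an RMS difference of 0.80. Outside the 8, Zfp503, Gm42047 and Fam111a were all most like the noncoding Gm43305, at 1.37, 1.77 and 1.13, and then Ppp1r36dn, at 1.53, 1.94 and 1.14. Gm43305 had a mean of 804 CPM in Halo-NLS, 506 in SOX9-Halo_budding and 3922 in SOX9-Halo_spheroid, but 5.28 in SOX9-mEGFP_budding and 19.5 in SOX9-mEGFP_spheroid. It lies on chromosome 14 like Zfp503, but beyond the 250 kb around it. Ppp1r36dn was nearest to 1700030C10Rik, at 0.58, and ENSMUSG00000134320 followed at 0.96.

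Tnnt1 was most like St3gal1, a sialyltransferase, at 0.63 and Pde8b, a phosphodiesterase, at 0.72. St3gal1 was at 13.0 CPM in SOX9-mEGFP_budding, 3.11 in SOX9-Halo_budding, 1.56 in SOX9-mEGFP_spheroid and 0.0532 in SOX9-Halo_spheroid. Wfdc2 was most like Elf5, an ETS transcription factor of gland epithelia, at 0.56 and Padi4, an enzyme that turns arginine into citrulline, at 0.84. Elf5 was at 111 CPM in SOX9-Halo_spheroid and at most 0.174 CPM on average in each other condition. Efemp1 was most like Basp1 at 0.81 and the serine protease Hpn at 0.84, with 88.4 and 93.2 CPM in SOX9-mEGFP_spheroid. Smpdl3a was most like the chemokine Ccl9 at 0.78 and Sytl2, a partner of Rab27 in secretion, at 0.89. Ccl9 ran from 43.6 CPM in SOX9-mEGFP_spheroid to 0.0508 CPM in SOX9-Halo_spheroid. Likeness is over 15 libraries that share their conditions and is given as a description.

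Relatives and partners of the 8 genes were read from lists, none of whose 82 tested genes was called between the lines in budding organoids by edgeR, where 12 had an unadjusted p under 0.05 and DESeq2 called 3. In spheroids 12 of the 82 were called, or 14.6%, close to the 13.1% of all tested genes. They were 2 higher and 10 lower in SOX9-Halo, where 3.59% of all tested genes were higher and 9.56% lower, and the counts of each list are to be read against these shares. Of 11 tested NET family and Groucho corepressor genes around Zfp503, 3 were lower in SOX9-Halo spheroids, Tle1 at -1.42 (SE 0.17), Tle3 at -1.37 (SE 0.26) and Sp5 at -6.83 (SE 1.17), with adjusted p of 1.7e-05, 0.0012 and 0.00049. The corepressors Tle5 and Hdac1, the most abundant of that list, were at -0.16 and 0.63 (adjusted p = 0.62 and 0.0085, under the fold limit). Of 17 tested genes for the replication clamp and repair of protein-DNA crosslinks around Fam111a, 0 were called in either shape, with medians of 0.07 and 0.50 against 0.01 and -0.05 over all tested genes. Pcna, the clamp, was at -0.15 and 0.47 (adjusted p = 1 and 0.14) and Top2a, a topoisomerase, at 0.26 and 0.05 (adjusted p = 1 and 0.97). The genes named in these lists beyond the 2 most abundant of each were picked after their values were seen.

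Of 12 tested troponin and sarcomere genes, 1 was higher in SOX9-Halo spheroids, Des (3.80, SE 0.89, adjusted p = 0.0055), and 1 lower, Acta1 (-4.02, SE 0.39, adjusted p = 2.7e-06). The tropomyosins Tpm3 and Tpm1, which lead this list in abundance and also serve the actin of non-muscle cells, were at 0.31 and -0.37 (adjusted p = 0.20 and 0.14). Of 5 tested relatives of Wfdc2 with WAP domains, none passed the limits of a call between the lines in either shape. Wfdc18 was at 4.18 in budding organoids (adjusted p = 0.026) and 0.11 in spheroids (adjusted p = 0.89), and Slpi, a leukocyte protease inhibitor, was at 2.24 in spheroids (adjusted p = 0.030). Averaged over lines both rose in spheroids, by 6.82 (SE 0.46, adjusted p = 1.4e-08) and 9.85 (SE 0.96, adjusted p = 6.4e-06), the latter from 0 counts in all budding libraries of the SOX9 lines.

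Of 8 tested fibulin and elastic fibre genes around Efemp1, 2 were lower in SOX9-Halo spheroids, Efemp2 by -5.65 (SE 0.50, adjusted p = 9.7e-07) and Fbln1 by -2.17 (SE 0.50, adjusted p = 0.0047). Efemp2, fibulin-4, thus shared the direction of Efemp1, while Ltbp4 was at 1.37 (adjusted p = 0.029). Of 16 tested sphingomyelin and ceramide enzymes around Smpdl3a, the neutral sphingomyelinase Smpd3 was lower (-1.43, SE 0.28, adjusted p = 0.0013) and the ceramidase Acer2 higher (1.20, SE 0.23, adjusted p = 0.0011), while Cers2 was at -0.04 (adjusted p = 0.88). Of 13 tested LXR targets 3 were lower in SOX9-Halo spheroids, the sterol transporters Abcg5 (-6.93, SE 0.59, adjusted p = 8.2e-07) and Abcg8 (-5.99, SE 0.56, adjusted p = 1.8e-06) and the ubiquitin ligase Mylip (-4.85, SE 0.75, adjusted p = 0.00019). Scd2 and Scd1, desaturases that lead this list in abundance, were at 0.72 and 0.28 (adjusted p = 0.065 and 0.55).

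Of 28 tested cell type markers, 14 were called between the lines in spheroids, 1 higher and 13 lower in SOX9-Halo. Of all tested genes 13.1% were called there, 3.59% higher and 9.56% lower. All 8 tested goblet markers were lower in SOX9-Halo spheroids, with a median of -8.23 and a summed level of 20.3 to 27.1 CPM against 2618 to 3798 CPM in SOX9-mEGFP spheroids. The most abundant of them, Fcgbp and Tff3, were at -6.58 and -9.68 (SE 0.84 and 0.61, adjusted p = 3.6e-05 and 4.4e-08). Of 8 tested epithelial markers 3 were lower, Epcam, Krt8 and Vil1, and the list summed to 6323 to 7027 CPM against 12088 to 12420 CPM. The part of these markers in the spheroid values of Wfdc2, Efemp1, Smpdl3a and Tnnt1 was not tested. In budding organoids 0 of 8 goblet markers and 0 of 8 epithelial markers were called, where 0.456% of all tested genes were. Their medians were -0.73 and -0.25, against 0.01 over all tested genes. The part of these markers in the line difference of Zfp503, Gm42047, 1700030C10Rik and Fam111a was not tested either.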

How the data were processed

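The authors trimmed the paired reads with cutadapt 4.5, aligned them with STAR to mm39 (GRCm39) and kept unique alignments. They deposited raw counts per gene and library from HTSeq 2.0.2, in union mode and without strand, with Ensembl gene IDs. Rows that name no gene were left out, of which reads on no gene made up 1.83% to 6.09% and ambiguous reads 9.65% to 13.6% of a library. The deposited tables of fold changes and merged values were not used.

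The counts of all 15 libraries were fitted in edgeR 4.0.16 (R 4.3.3) with TMM scaling, filterByExpr, 1 coefficient per condition and quasi-likelihood tests, with Benjamini-Hochberg adjustment over 17560 genes. The common BCV (coefficient of variation between replicates) was 0.302. Genes were called where the adjusted p was no higher than 0.01, the change 2-fold or more and the normalized counts 10 or more on average. Folds against a condition with 0 counts are bounds against 3 counts over its 3 libraries, and folds on pooled counts carry exact 95% intervals for counting error. Coordinates and exon lengths came from GENCODE release 39 on GRCm39. Genes were named by a rule, all 8 genes, the nearest tested neighbour on each side, the 2 most alike genes, the 2 most abundant genes of a list and Sox9. Several marker lists are given by sums alone. C130012C08Rik, Cox6b2, Syt5, Ptprh, Brsk1, Tmem150b, Gm57459, A330040F15Rik, the genes of on and off patterns and further list genes lie outside the rule and were named after their values were seen. Members and lists were chosen with earlier results of these data known. The script was tested on simulated data.

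The labels call the libraries replicates, and the paper calls them biological replicates. Neither says that they came from separate animals, so p-values measure the spread between these cultures. Replicate numbers were checked for pairing by the correlation of deviations from condition means over 11039 genes. In SOX9-Halo budding against spheroid all 3 same-number correlations were over 0.1 (0.41, 0.25 and 0.36), and the numbers were taken to pair there only. DESeq2 1.42.0, other scalings and filters, fewer libraries and leaving out each library were tried as alternatives.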

Additional observations from a re-analysis of the deposited data

Results flagged for a closer look

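For 3 of the 8 genes the spheroid libraries lay above all budding libraries in one line and below all of them in the other. For Efemp1 the change in SOX9-Halo minus that in SOX9-mEGFP was -12.95 on the log2 scale, from 45 to 1 pooled counts in SOX9-Halo and from 33 to 8528 in SOX9-mEGFP. For Smpdl3a it was -11.85, from 730 to 0 pooled counts in SOX9-Halo and from 1219 to 2939 in SOX9-mEGFP. For Zfp503 it was 4.12, from 3806 to 11579 pooled counts in SOX9-Halo and from 7 to 1 in SOX9-mEGFP, too few to tell a change (adjusted p = 0.071). The change of Smpdl3a in SOX9-mEGFP was not called either (adjusted p = 0.17). These differences were not tested, since they are made of the line contrasts that chose the genes, and the size of each depends on how the fit treats counts at or near 0.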

How the results depend on the processing

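Counts of the 8 genes called in each comparison stayed within 1.5 times their value in all alternatives but those named here, and no called log2 fold change of the 8 genes changed sign in any alternative. In SOX9-Halo_budding against Halo-NLS, 3 genes were called with no filter on low counts and 0 to 1 when a library was left out, against 0. Called members ranged from 4 to 5 (SOX9-Halo, spheroid against budding), 4 to 6 (SOX9-Halo_spheroid against Halo-NLS) and otherwise did not move when each library was left out. The number of all genes called between the lines in budding organoids was 80, and became 217 with DESeq2, 280 with no filter, 19 with only the libraries compared, and 46 to 101 when a library was left out, lowest without SOX9-mEGFP_budding replicate 2 and 50 without SOX9-Halo_budding replicate 1. In spheroids it ranged from 1702 to 2447 around 2308. With the replicate number as a block, 6 members were called in SOX9-mEGFP_budding against Halo-NLS, Smpdl3a being added at 2.29 (adjusted p = 0.0068), although numbers were not shown to pair there. The block gave 97 and 2544 genes between the lines in budding organoids and spheroids, and 6 members in SOX9-Halo spheroids against budding organoids. It changed no other call of the 8 genes. Of all genes, 659 were called in SOX9-Halo_budding and 484 in SOX9-mEGFP_budding against Halo-NLS, and these became 1661 and 1234 with DESeq2, 1176 and 727 with library sizes alone, 2357 and 1990 with no filter, and 5 and 103 with only the libraries compared. Those called in SOX9-Halo_budding against Halo-NLS ranged from 201 without Halo-NLS replicate 2 to 2370 without Halo-NLS replicate 1, and in SOX9-mEGFP_budding against Halo-NLS from 216 to 2183 without the same libraries. The uncalled line difference of Efemp1 in budding organoids turned from 0.41 to -0.97 without SOX9-Halo_budding replicate 3, and that of Wfdc2 from -0.59 to 0.06 without SOX9-mEGFP_budding replicate 3. The causes were not tested. Folds against a condition with few counts carry wide counting intervals, and those against 0 counts are bounds.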
